A study of Mus musculus with 40 samples.

Results

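The genes described here are the nuclear genes that encode the subunits of the mitochondrial respiratory chain and ATP synthase, together with the assembly factor Lyrm7. They were taken by symbol: the Ndufa, Ndufb, Ndufc, Ndufs and Ndufv series, Sdha to Sdhd, the Uqcr series, Cox4 to Cox8, the Atp5 series, Cycs, Cyc1 and Lyrm7. Numbered pseudogenes were dropped. The rule used no measured value, but it was chosen with earlier results of these data known. Lyrm7 entered by name as the only assembly factor. The rule found 86 genes among the 17974 listed for either stage. The 86 comprise 39 genes placed in complex I, 4 of complex II, 8 of complex III, 16 of complex IV (Ndufa4 and Ndufa4l2 among them), 17 of complex V, cytochrome c and Lyrm7. The 2 names Ndufs5-ps and Ndufs6b are annotated as pseudogenes.

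The study compared forebrain of wild-type (WT) mouse embryos with that of embryos carrying a duplication of Chd8 (KI in the labels), which encodes an ATP-dependent chromatin remodeler linked to autism. Polyadenylated RNA was sequenced from 5 WT and 5 KI forebrains of male embryos at E14.5 (embryonic day), within the period of cortical neurogenesis, and from 5 and 5 at E18.5, shortly before birth. The strain, the way the extra copy was introduced and the litters are not given in the sources used here, so each p-value measures the spread between these libraries. The authors' deposited tables give, for each gene and stage, a mean normalized count over all 10 libraries, a log2 fold change and its standard error (SE). They hold no values per library, so the overlap between single KI and WT forebrains cannot be shown. Values above 0 are read as higher in KI, because Chd8 itself was positive per the authors' deposited table at both stages (0.64 and 0.51).

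Oxidative phosphorylation couples the oxidation of NADH and succinate to the synthesis of ATP. Complexes I and II pass electrons to ubiquinone, complex III passes them on to cytochrome c, and complex IV passes them to oxygen. Complexes I, III and IV pump protons across the inner mitochondrial membrane, and complex V, the ATP synthase, lets them flow back. Most subunits are encoded in the nucleus and imported, while a few hydrophobic core subunits are made inside the mitochondrion from mitochondrial DNA. In the developing forebrain, progenitors rely strongly on glycolysis, and neurons come to depend on oxidative phosphorylation as they mature. Many of the nuclear genes are regulated by NRF1 and by the ETS factor GABPA.

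The 3 promoters printed here show what those 2 motifs look like in these genes and what the promoter of Ndufb2, the subunit gene called when the stages were combined, holds. Each line gives the 250 bases upstream of the annotated start, written from 5′ to 3′ on the gene's own strand, from RefSeq in assembly GRCm38.p6. Capitals mark CGCATGCG, the NRF1 core, and CCGGAAG, the ETS core, which reads CTTCCGG on the opposite strand. The NRF1 core starts at position −61 from the start of Cycs (chr6:50566570-50566819, minus strand). In Cox6a1 (chr5:115348959-115349208, minus strand) the NRF1 core starts at −161 and the ETS core, on the opposite strand, at −16. The Ndufb2 stretch (chr6:39592315-39592564, plus strand) holds neither set of letters.
Cycs: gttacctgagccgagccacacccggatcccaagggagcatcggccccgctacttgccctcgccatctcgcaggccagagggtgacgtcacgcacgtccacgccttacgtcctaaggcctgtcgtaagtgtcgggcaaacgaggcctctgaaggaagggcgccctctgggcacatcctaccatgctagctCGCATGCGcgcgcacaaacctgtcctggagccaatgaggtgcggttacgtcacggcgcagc
Cox6a1: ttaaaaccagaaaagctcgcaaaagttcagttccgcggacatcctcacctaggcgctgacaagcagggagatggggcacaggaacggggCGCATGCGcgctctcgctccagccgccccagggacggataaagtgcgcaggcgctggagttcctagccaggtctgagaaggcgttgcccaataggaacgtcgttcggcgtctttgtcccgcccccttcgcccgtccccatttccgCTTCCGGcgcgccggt
Ndufb2: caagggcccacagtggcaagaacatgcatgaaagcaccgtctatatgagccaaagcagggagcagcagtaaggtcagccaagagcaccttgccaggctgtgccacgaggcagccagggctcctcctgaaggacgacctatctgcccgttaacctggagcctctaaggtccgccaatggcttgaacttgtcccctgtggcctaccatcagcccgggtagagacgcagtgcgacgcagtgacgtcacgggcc

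Of the 86 genes, 68 had a promoter window, here the 250 bases before to 50 bases after a RefSeq start, searched on both strands. The NRF1 core stood in 9 of the 68 (13.2%), and in 2.07% of all 27025 genes with a window. Its holders were Cycs, Cox6a1, Uqcrc1, Ndufa8, Ndufa11, Atp5g2, Atp5j, Atp5k and Atp5l. The ETS core stood in 16 of the 68 (23.5%), against 9.93% of all genes with a window. Among the 13256 genes in the tables with a window these shares were 3.65% and 16.7%. One motif or both stood in 21 of the 68 (30.9%), and a match describes letters, not binding.

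**Figure D1:**
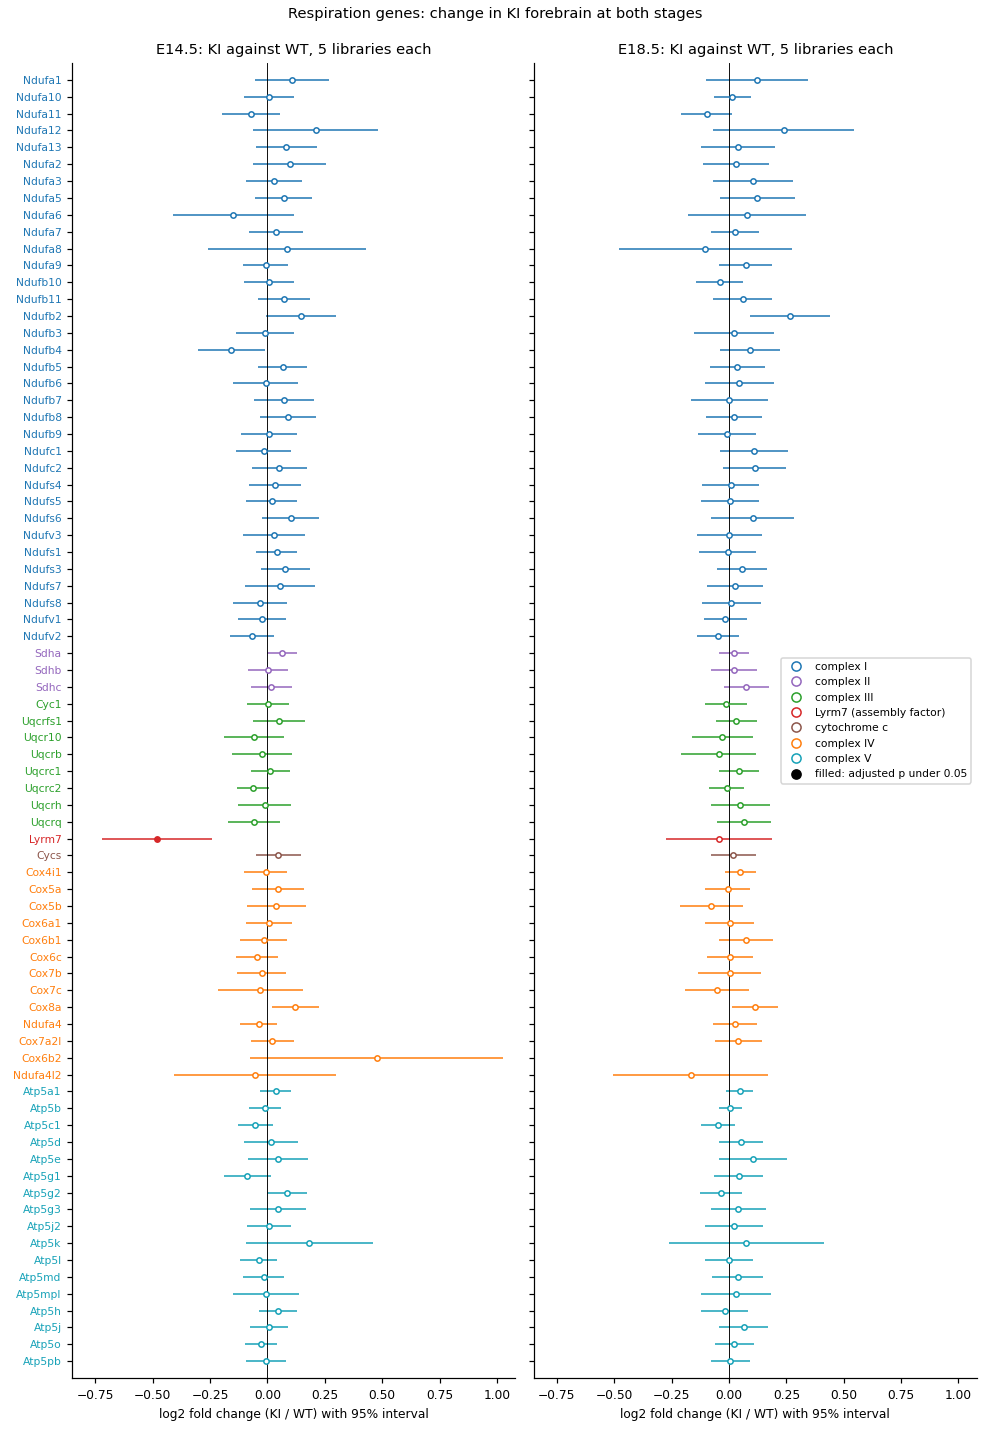
Log2 fold change of KI against WT with its 95% interval, one row per named respiration gene with an adjusted p, at E14.5 (left) and E18.5 (right), coloured by complex. The filled point is Lyrm7 at E14.5, the one gene with an adjusted p under 0.05, and most other points lie within 0.1 of 0.

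At E14.5 most tested respiration genes differed little between KI and WT, and 68 of 78 lay within 0.1 of 0. Cox6b2 had a large value with a large error (0.48, SE 0.281) and was not called. An adjusted p was present for 78 of the 86, and 1 of those 78 (1.28%) was called, meaning an adjusted p under 0.05 in the authors' DESeq2 comparison. Over all 13417 genes tested the share called was 1.21%, made up of 0.738% higher and 0.47% lower in KI. The one called was Lyrm7, which the rule adds by name, and it was lower in KI. Without Lyrm7, 0 of 77 were called. An unadjusted p under 0.05 was found for 3 of the 78 (3.85%), against 11.5% of all genes tested. Besides Lyrm7 these were Ndufb4 and Cox8a.

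The differences of the 78 genes, Lyrm7 included, were typically small relative to those of genes at large. The median log2 fold change of the 78 was 0.01 with 47 above 0 (60.3%), and over all genes tested it was 0.00 with 49.8% above 0. The median size of the difference, sign aside, was 0.039 for the 78 and 0.060 for all genes tested. These genes were also measured more precisely, with a median SE of 0.058 against 0.068 and a median of 1274 normalized counts against 615. For 67 of the 78 (85.9%) the 95% interval of the log2 fold change lay wholly within 0.25 of 0, as it did for 61.9% of all genes tested.

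At E18.5 no respiration gene was called. Of 77 with an adjusted p, 0 passed in the authors' DESeq2 comparison, and the share called over all 13601 genes was 0.0662% (0.0441% higher and 0.0221% lower), so few genes of any kind were called at this stage. For 2 of the 77 (2.60%), Ndufb2 and Cox8a, the unadjusted p was under 0.05, against 5.96% of all genes tested. More of the genes lay on the KI-high side than at E14.5: 58 of 77 (75.3%) were above 0, against 48.8% of all genes tested. Their median log2 fold change was 0.03, against 0.00. The SE of a typical single gene (median 0.060) was larger, but it does not measure the error of a median over 77 genes, which was not estimated. For 64 of the 77 (83.1%) the interval lay within 0.25 of 0, against 63.5% of all genes tested.

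The 2 stages were also combined, weighting each log2 fold change by the inverse of its squared SE, with Benjamini-Hochberg adjustment over the 13106 genes tested at both. Of 77 genes, 1 (1.30%) was then called, Ndufb2, which was higher in KI. Over all genes the share called in this way was 1.94%, made up of 1.1% higher and 0.839% lower in KI. Of the 77, 52 (67.5%) were above 0 with a median of 0.02, and 71 (92.2%) had an interval within 0.25 of 0, against 80.0% of all genes.

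Lyrm7 encodes a matrix chaperone of the LYR motif family that hands the iron-sulfur protein Uqcrfs1 to assembling complex III. It is NCBI gene ID 75530, on the minus strand of chromosome 11 from 54826866 to 54860921 (GRCm38.p6). At E14.5 the authors' deposited table gives it a mean normalized count of 132 and a log2 fold change of −0.48 (SE 0.123, DESeq2 adjusted p = 0.0130), so that its level fell by 28.4% in KI. At E18.5 the mean normalized count per the authors' deposited table was 174 and the log2 fold change −0.04 (SE 0.117, adjusted p = 1.0). Lyrm7 thus passed the threshold at 1 of the 2 stages. The later log2 fold change minus the earlier was 0.44 (SE 0.170, 95% interval 0.10 to 0.77, unadjusted p = 0.0100), which did not pass over all genes (Benjamini-Hochberg adjusted p = 0.999). Combined over stages it stood at −0.25 (SE 0.085, Benjamini-Hochberg adjusted p = 0.0949). The E14.5 call ended with Benjamini-Yekutieli adjustment (adjusted p = 0.131) and when the Wald statistics of all genes were rescaled to their own spread (0.184). Over the other recomputations its adjusted p ran from 0.0116 to 0.0174.

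None of the 3 tested genes on either side of Lyrm7 was called at either stage. Hint1, a nucleotide hydrolase and the nearest of them at 24.6 kb between gene centres, was at 0.02 (SE 0.050) per the authors' deposited table at E14.5. Cdc42se2, on the other side, was at 0.01 (SE 0.034) per the authors' deposited table. The 3 farther genes Fnip1, Rapgef6 and Tnip1 were at −0.03, 0.06 and 0.09, and Gpx3 was at 0.13 (SE 0.130), per the authors' deposited table. The promoter window of Lyrm7 held neither motif.

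**Figure D2:**
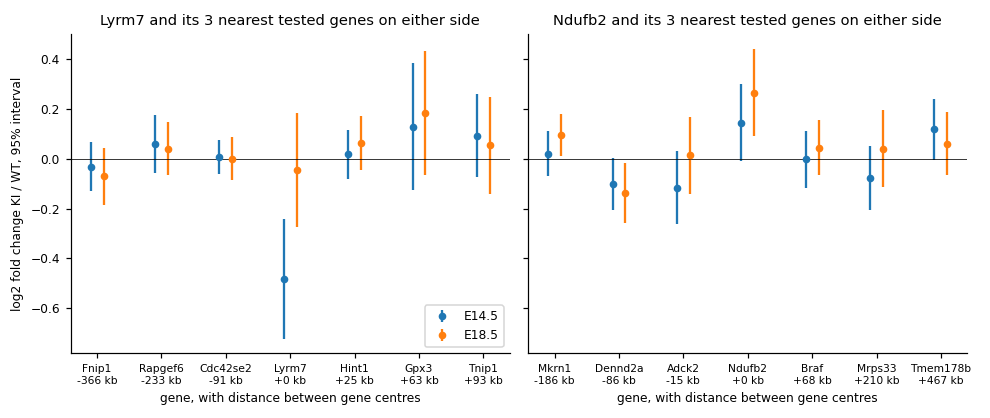
Log2 fold change with 95% interval (blue, E14.5; orange, E18.5) of Lyrm7 (left), Ndufb2 (right) and the 3 nearest tested genes on either side of each, with the distance between gene centres in kb. Lyrm7 at E14.5 (−0.48) is the one interval far from 0 on the left, and Ndufb2 lies above Adck2 and Braf, its nearest neighbours, at both stages.

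Complex III, the complex that Lyrm7 helps to assemble, had 8 subunit genes tested and none of them was called. Uqcrfs1, the iron-sulfur protein itself, was at 0.05 (SE 0.058) at E14.5 against 0.03 (SE 0.046) at E18.5 per the authors' deposited table. Cyc1, the cytochrome c1 subunit that passes electrons to cytochrome c, was at 0.00 (SE 0.047) and −0.01 (SE 0.047) per the authors' deposited table. Both electron-carrying subunits thus lay within 1 SE of WT at both stages. The 6 supporting subunits had a median of −0.04 at E14.5, with 1 above 0, and of 0.02 at E18.5, with 3 above 0. Uqcrc2, a core scaffold protein, was lowest relative to its SE at E14.5, at −0.06 (SE 0.036, adjusted p = 0.516) per the authors' deposited table. Its partner Uqcrc1 was at 0.01 (SE 0.044) per the authors' deposited table. Uqcrq was at −0.06 and 0.06, Uqcr10 at −0.06 and −0.03, Uqcrb at −0.02 and −0.04, and the hinge protein Uqcrh at −0.01 and 0.05, at E14.5 and E18.5 per the authors' deposited table.

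Other assembly factors of complex III, from a list written from general knowledge, were not called either (0 of 5 at each stage, with 1 and 0 at an unadjusted p under 0.05). The shares called among all genes were 1.21% at E14.5 and 0.0662% at E18.5. Bcs1l, the ATPase that moves the iron-sulfur protein across the inner membrane after Lyrm7 has bound it, was at −0.15 (SE 0.075, adjusted p = 0.404) at E14.5 against −0.03 (SE 0.072) at E18.5 per the authors' deposited table. Ttc19, which clears fragments of that protein, was at 0.07 at both stages (SE 0.060 and 0.059) per the authors' deposited table. Uqcc1, Uqcc2 and Uqcc3, which act on the mitochondrially made cytochrome b, were at −0.07, 0.08 and −0.07 at E14.5 per the authors' deposited table.

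The LYR motif family, small proteins that serve respiratory complexes and iron-sulfur clusters, had 11 genes tested. At E14.5, 1 was lower (Lyrm7) and 1 higher in KI, and at E18.5 none was called, with 0 at an unadjusted p under 0.05. Over all genes 1.21% were called at E14.5 and 0.0662% at E18.5. The higher one was Fmc1, an assembly factor of ATP synthase, at a mean normalized count of 218 and a log2 fold change of 0.39 (SE 0.103, DESeq2 adjusted p = 0.0177) per the authors' deposited table at E14.5. At E18.5 Fmc1 was at 0.18 (SE 0.139, adjusted p = 1.0) per the authors' deposited table, and over both stages at 0.32 (SE 0.083, Benjamini-Hochberg adjusted p = 0.0133). The rest of the family did not pass. Lyrm1 was at −0.29 (SE 0.164), Lyrm2 at 0.01, Lyrm4, which serves the iron-sulfur cluster machinery, at 0.05, and Lyrm9 at −0.02 at E14.5 per the authors' deposited table. The LYR subunits of complex I, Ndufa6 and Ndufb9, were at −0.15 (SE 0.135) and 0.01 (SE 0.062) at E14.5 per the authors' deposited table. The calls of both Lyrm7 and Fmc1 at E14.5 ended under the 2 alternatives given above for Lyrm7.

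**Figure D3:**
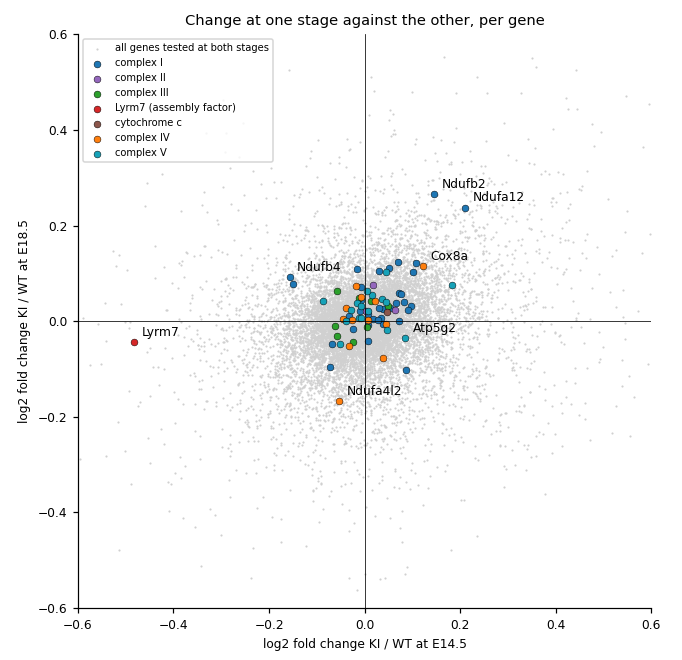
Log2 fold change at E14.5 (horizontal) against E18.5 (vertical), one coloured point per respiration gene tested at both stages and one grey dot per other gene, with 40 of 13106 genes outside the axes. Lyrm7 lies far to the left near the horizontal axis, and Ndufb2 and Ndufa12 lie to the upper right.

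Complex I, the NADH dehydrogenase, had 35 genes tested, of which 25 were above 0 at E14.5 and 28 at E18.5. The median was 0.03 at both. None was called at either stage, and Ndufb2 was called over both stages combined. Ndufb2, an accessory subunit of the membrane arm (NCBI gene ID 68198), is on the plus strand of chromosome 6 from 39592565 to 39599843. Per the authors' deposited table it had a mean normalized count of 494 and a log2 fold change of 0.15 (SE 0.078, adjusted p = 0.462) at E14.5. At E18.5 it had 682 and 0.27 (SE 0.089, adjusted p = 0.429) per the authors' deposited table, a level 20.3% higher in KI. The value over both stages was 0.20 (SE 0.059, Benjamini-Hochberg adjusted p = 0.0422). The sign was the same at both stages, and their difference was 0.12 (SE 0.118, adjusted p = 0.999). The combined call ended with Benjamini-Yekutieli adjustment (adjusted p = 0.425) and with the rescaled statistics (0.363), and its adjusted p ran from 0.0394 to 0.0482 over the other recomputations.

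None of the genes beside Ndufb2 was called. Adck2, a mitochondrial kinase-like protein 14.9 kb away, was at −0.12 (SE 0.075) and 0.01 (SE 0.079) at E14.5 and E18.5 per the authors' deposited table. Braf, on the other side, was at 0.00 (SE 0.058) and 0.04 (SE 0.057) per the authors' deposited table. Dennd2a was at −0.10 and −0.14 (unadjusted p = 0.0243 at E18.5) and Mkrn1 at 0.02 and 0.10 (unadjusted p = 0.0264 at E18.5) per the authors' deposited table. Mrps33 was at −0.08 and 0.04 and Tmem178b at 0.12 and 0.06 per the authors' deposited table, so neighbours lay on both sides of 0.

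The 7 core subunits of complex I, which carry the flavin and the iron-sulfur clusters or line the quinone site, ranged from −0.07 to 0.08 at E14.5 and from −0.05 to 0.06 at E18.5. Ndufs1, the largest iron-sulfur subunit, was at 0.04 (SE 0.046) and 0.00 (SE 0.064) per the authors' deposited table. Ndufv1, which binds NADH, was at −0.03 (SE 0.054) and −0.02 (SE 0.048) per the authors' deposited table. Its partner Ndufv2 was among the lowest relative to SE at both stages, at −0.07 (SE 0.048, adjusted p = 0.633) and −0.05 (SE 0.048, adjusted p = 1.0) per the authors' deposited table. For all 7 core genes the interval lay within 0.25 of 0 at each stage. Ndufs3 was at 0.08, Ndufs7 at 0.05 and Ndufs8 at −0.03 at E14.5 per the authors' deposited table.

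The 28 accessory subunits of complex I had medians of 0.04 at both stages, with 21 above 0 at E14.5 and 24 at E18.5. Ndufb4, a membrane-arm subunit, stood apart in its difference between stages. It was at −0.16 (SE 0.075, adjusted p = 0.378) at E14.5 against 0.09 (SE 0.067, adjusted p = 1.0) at E18.5 per the authors' deposited table. The later value minus the earlier was 0.25 (SE 0.101, unadjusted p = 0.0134, Benjamini-Hochberg adjusted p = 0.999), which did not pass. Its near-copies Ndufb4b and Ndufb4c had mean normalized counts of 11.6 and 20.2 against 589 for Ndufb4 at E14.5 per the authors' deposited table, and how reads shared between them were counted is not given in the sources used here.

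Other accessory subunits with larger values had larger errors. Ndufa12, which sits at the joint of the matrix arm, was at 0.21 (SE 0.139) and 0.24 (SE 0.157) per the authors' deposited table, where its mean normalized counts were 206 and 182. Combined it was at 0.22 (SE 0.104, unadjusted p = 0.0332, Benjamini-Hochberg adjusted p = 0.334). Ndufa8 was at 0.09 (SE 0.175) and −0.10 (SE 0.192) at counts of 83.7 and 112 per the authors' deposited table. Ndufa11, a membrane-arm subunit, was lower at both stages without passing, at −0.07 (SE 0.065) and −0.10 (SE 0.056, adjusted p = 0.949) per the authors' deposited table. Ndufc2, near the middle of the membrane arm, was at 0.05 (SE 0.062) and 0.11 (SE 0.070, adjusted p = 0.983) per the authors' deposited table. Ndufs4 and Ndufs6, accessory subunits of the matrix arm whose loss causes complex I deficiency, were at 0.03 and 0.10 at E14.5 and at 0.01 and 0.10 at E18.5 per the authors' deposited table. Ndufab1, the acyl carrier protein that the LYR subunits bind and that the symbol rule leaves out, was at 0.03 and −0.01 per the authors' deposited table.

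Complex II, succinate dehydrogenase, takes part in both the citric acid cycle and the respiratory chain. Its 3 tested genes were all above 0 at both stages and none was called. Sdha, the flavoprotein, was at 0.06 (SE 0.034, adjusted p = 0.462) at E14.5 against 0.02 (SE 0.034) at E18.5 per the authors' deposited table. Sdhb, the iron-sulfur subunit, was at 0.00 (SE 0.045) and 0.02 (SE 0.050), and the membrane anchor Sdhc at 0.02 (SE 0.045) and 0.08 (SE 0.049, adjusted p = 0.992), per the authors' deposited table. The other anchor, Sdhd, had a mean normalized count of 3.34 per the authors' deposited table at E14.5, against 3550 for Sdha, and received no adjusted p. Sdhd is known as a widely expressed gene, and how reads that map to several places were counted is not given in the sources used here, so this count may not show its level.

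Cycs, the soluble cytochrome c that carries electrons from complex III to complex IV, was at 0.05 (SE 0.050) and 0.02 (SE 0.050) per the authors' deposited table, at mean normalized counts of 1321 and 1260.4. Neither value reached 1 SE from 0.

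Complex IV, cytochrome c oxidase, had 13 genes tested at E14.5 (6 above 0, median −0.01) and 12 at E18.5 (8 above 0, median 0.00), and none was called. Cox8a, a small membrane subunit on chromosome 19, came closest. The authors' deposited table gives it 0.12 (SE 0.053, adjusted p = 0.304) at E14.5 against 0.11 (SE 0.051, adjusted p = 0.773) at E18.5, at mean normalized counts of 2503 and 2768. Its 2 values were nearly equal, and the combined value was 0.12 (SE 0.037, Benjamini-Hochberg adjusted p = 0.0607), which missed the threshold. Cox4i1, the common isoform of the regulatory subunit 4, was at −0.01 (SE 0.048) and 0.05 (SE 0.035) per the authors' deposited table. Cox6a1 was at 0.01 (SE 0.050) and 0.00 (SE 0.054) per the authors' deposited table, both within 1 SE of 0. Cox5b, a subunit that binds zinc, was at 0.04 (SE 0.065) and −0.08 (SE 0.070, adjusted p = 1.0) per the authors' deposited table.

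Isoforms of complex IV known from other tissues or conditions had low counts in these tables. Cox4i2, the isoform of subunit 4 linked to low oxygen, had mean normalized counts of 12.8 and 26.8 per the authors' deposited table, against 4469 and 4874 for Cox4i1. Its log2 fold changes per the authors' deposited table were 0.90 (SE 0.370, unadjusted p = 0.0148) at E14.5 against 0.39 (SE 0.305) at E18.5, with no adjusted p at either stage. In the adult brain Cox4i2 is known from pericytes, and the mural cell markers Rgs5, Pdgfrb and Abcc9 were at −0.03, −0.07 and 0.01 at E14.5 per the authors' deposited table. Any part of mural cells in the Cox4i2 values was not tested. Cox6b2, the isoform known from testis, was at 0.48 (SE 0.281, adjusted p = 0.530) at E14.5, for a mean normalized count of 32.8, per the authors' deposited table. At E18.5 it was at 0.67 (SE 0.320, unadjusted p = 0.0353) without an adjusted p per the authors' deposited table. Of 6 testis markers, 1 was tested at either stage and it was not called. Cox7a1, the heart and muscle isoform, had a mean normalized count of 11.5 at E14.5 per the authors' deposited table. Cox7a2, its widely expressed counterpart, had 16.7 per the authors' deposited table, and it too received no adjusted p. For Cox7a2, as for Sdhd, the unknown handling of shared reads leaves it uncertain whether this count shows its level.

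Ndufa4, named for complex I but now placed in complex IV, was at −0.04 (SE 0.041) and 0.03 (SE 0.049) per the authors' deposited table. Its paralog Ndufa4l2, which is induced by hypoxia in other cells, was at −0.05 (SE 0.180) and −0.17 (SE 0.172, adjusted p = 1.0), at mean normalized counts of 53.7 and 70.6, per the authors' deposited table. Cox7a2l, which joins complexes III and IV into supercomplexes, was at 0.02 (SE 0.048) and 0.04 (SE 0.052) per the authors' deposited table. Each of these values lay within 1 SE of 0.

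Complex V had 17 genes tested, 9 above 0 at E14.5 (median 0.01) and 14 at E18.5 (median 0.03), none called. Atp5a1 and Atp5b, the alpha and beta subunits of the catalytic head, had the highest mean normalized counts of all the respiration genes, 13386 and 18452 at E14.5 per the authors' deposited table. Atp5a1 was at 0.04 (SE 0.035) and 0.05 (SE 0.030, adjusted p = 0.992), and Atp5b at −0.01 (SE 0.036) and 0.01 (SE 0.025), per the authors' deposited table. These were also among the most precise values. For Atp5b the 95% interval at E18.5 ran from −0.04 to 0.05. Atp5c1, the gamma subunit of the rotating stalk, was at −0.05 at both stages (SE 0.038 and 0.037) per the authors' deposited table.

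The c ring of ATP synthase is built from one mature protein that 3 genes encode, and these 3 differed in sign. Atp5g1 was at −0.09 (SE 0.052, adjusted p = 0.532) at E14.5 against 0.04 (SE 0.054) at E18.5 per the authors' deposited table. Atp5g2 had the reverse signs, 0.08 (SE 0.044, adjusted p = 0.452) and −0.04 (SE 0.047), per the authors' deposited table. Atp5g3 was at 0.05 (SE 0.062) and 0.04 (SE 0.061) per the authors' deposited table. The change between stages was 0.13 for Atp5g1 (SE 0.075, unadjusted p = 0.0834) and −0.12 for Atp5g2 (SE 0.064, unadjusted p = 0.0624), and neither passed over all genes (Benjamini-Hochberg adjusted p = 0.999 for both). The 4 peripheral stalk genes, Atp5pb, Atp5h, Atp5j and Atp5o, lay between −0.03 and 0.05 at E14.5 and between −0.02 and 0.06 at E18.5. Of the 5 genes of the membrane part, Atp5k was highest at 0.18 with the largest error (SE 0.141) at E14.5 per the authors' deposited table.

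No respiration gene was called for a difference between its changes at the 2 stages. Of the 13106 genes tested for that difference, 0 were called (0%), so the test called nothing anywhere, and 593 genes (4.52%) had an unadjusted p under 0.05. Among the 77 respiration genes 2 did (2.60%), Lyrm7 and Ndufb4, both with a higher value at E18.5. The sign was the same at both stages for 47 of the 77, in 37 above 0 and in 10 below, and for 57.8% of all genes. Across these 77 genes the log2 fold changes of the stages had a Pearson correlation of 0.39 (0.41 over the 76 without Lyrm7), against 0.21 across all genes. Genes are not independent replicates, and the members of 1 stage share their 10 libraries.

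**Figure D4:**
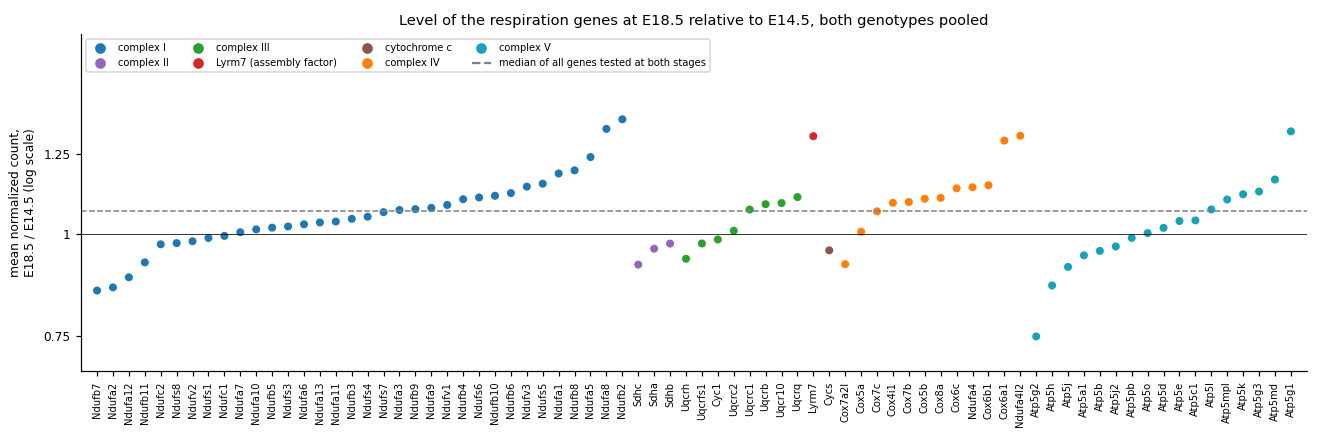
Ratio of the authors' mean normalized count at E18.5 to that at E14.5 (log axis), over both genotypes, for the named respiration genes tested at both stages, ordered within each complex. The dashed line is the median of all genes (1.07), and the genes run from Atp5g2 (0.749) to Ndufb2 (1.38).

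For most respiration genes the mean normalized count at E18.5 was close to that at E14.5. The tables were normalized separately, so the ratios of mean normalized counts are described without a test. The median ratio was 1.04 over the 77 genes, from 0.749 to 1.38, and 1.07 over all genes, whose quartiles were 0.864 and 1.40. Complex IV had the highest median among the complexes (1.10, with 11 of 12 genes above 1), and complex II the lowest (0.959, with 0 of 3 above 1). Among the c ring genes, Atp5g1 had a ratio of 1.33, Atp5g3 of 1.13 and Atp5g2 of 0.749. Ndufb2 (1.38), Ndufa8 (1.34) and Lyrm7 (1.31) were also on the high side, and Ndufb7 (0.852) was the lowest of complex I. As a share of all normalized counts the respiration genes made up 0.759% at E14.5 (86 listed) and 0.710% at E18.5 (84 listed).

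**Figure D5:**
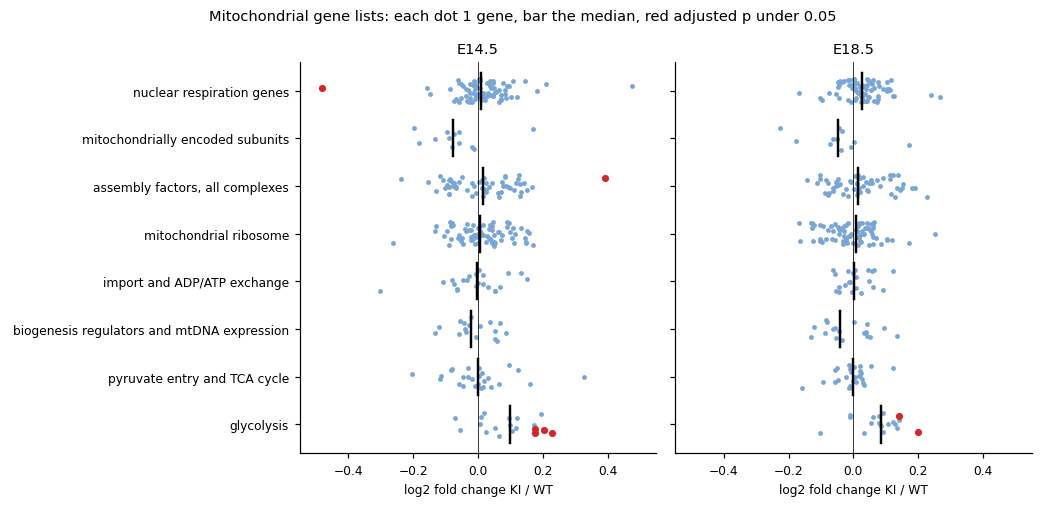
Log2 fold change of KI against WT at E14.5 (left) and E18.5 (right) for the respiration genes and other mitochondrial and glycolytic gene lists, each dot 1 tested gene, the black bar the median, and red dots genes with an adjusted p under 0.05. The respiration genes have medians of 0.01 and 0.03, the mitochondrially encoded subunits −0.08 and −0.05, and glycolysis 0.10 and 0.08.

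The subunits encoded in mitochondrial DNA, the partners of these proteins in complexes I, III, IV and V, lay mostly below 0. Of 12 tested, 11 were below 0 at E14.5 (median −0.08) and 10 at E18.5 (median −0.05), and at either stage 0 were called and 0 had an unadjusted p under 0.05. Over both stages 11 of 12 were below 0 (median −0.05) and 0 were called, with COX2 at −0.16 (SE 0.068, unadjusted p = 0.0165) and COX3 at −0.18 (SE 0.078, unadjusted p = 0.0212) under 0.05 before adjustment. Among all genes 1.21% were called at E14.5, 0.0662% at E18.5 and 1.94% over both stages. The transcripts of these subunits are copied together from 1 circular genome, so they are not 12 separate observations. COX1, the catalytic subunit of complex IV, was at −0.09 (SE 0.056, adjusted p = 0.532) and −0.04 (SE 0.064) per the authors' deposited table, at mean normalized counts of 95467 and 111526. CYTB, the cytochrome b of complex III, was at −0.06 (SE 0.045) and −0.05 (SE 0.062) per the authors' deposited table. ND3 of complex I was the one above 0 at E14.5, at 0.17 (SE 0.392) per the authors' deposited table.

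Factors that build the other complexes were not called, apart from Fmc1. For complex I, 0 of 18 assembly factors passed at either stage, with 9 above 0 and 0 at an unadjusted p under 0.05 at each, and Ndufaf1 was at 0.15 (SE 0.088) at E14.5 per the authors' deposited table. For complex II 0 of 4 passed, with 0 at an unadjusted p under 0.05. For complex IV 0 of 26 passed, with 0 at E14.5 and 2 at E18.5 at an unadjusted p under 0.05, Surf1 at −0.02 and Sco1, which delivers copper, at 0.01 at E14.5 per the authors' deposited table. Of the other ATP synthase factors, Tmem70 was at 0.01 (SE 0.064) and 0.14 (SE 0.061, adjusted p = 0.748) per the authors' deposited table.

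Regulators of mitochondrial biogenesis and mitochondrial gene expression had 0 of 17 called at E14.5 and 0 of 18 at E18.5, with 1 at each at an unadjusted p under 0.05. Among all genes 1.21% and 0.0662% were called at these stages. Over both stages, where 1.94% of all genes were called, 1 of 17 regulators was called. That one was Gabpa, whose ETS protein binds the CCGGAAG letters. It was at −0.13 at both stages (SE 0.049 and 0.053, adjusted p = 0.173 and 0.695) per the authors' deposited table, and combined at −0.13 (SE 0.036, Benjamini-Hochberg adjusted p = 0.0197). Of the respiration genes with the ETS core in their window, 15 were tested, with medians of 0.01 at E14.5 and 0.04 at E18.5. The 9 with the NRF1 core had medians of 0.01 and 0.00, and those with neither 0.02 and 0.03. Above 0 at E14.5 were 9 of 15 with the ETS core, 7 of 9 with the NRF1 core and 27 of 44 with neither. At E18.5 these counts were 14 of 15, 6 of 9 and 34 of 43. Any part of Gabpa in these values was not tested. Nrf1 itself was at 0.01 (SE 0.054) and 0.10 (SE 0.063), and Ppargc1a, a coactivator of both, at −0.04 (SE 0.0845) and 0.04 (SE 0.094), per the authors' deposited table. Tfam, which packages mitochondrial DNA, was at −0.04 and −0.06 per the authors' deposited table.

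Other mitochondrial lists gave 1 call each or none, and only when the stages were combined, with 0 to 5 genes per list and stage at an unadjusted p under 0.05. In the combined test 1.94% of all genes were called, 1.1% higher and 0.839% lower in KI. At single stages the shares were 1.21% at E14.5 and 0.0662% at E18.5. Of 77 mitochondrial ribosome genes, Mrpl23 was lower in KI over both stages, at −0.20 (SE 0.0565, Benjamini-Hochberg adjusted p = 0.0336), while Mrpl1 and Mrpl2 were at 0.00 and −0.01. Of 22 import and exchange genes, the ADP/ATP carrier Slc25a5 was higher, at 0.12 (SE 0.031, Benjamini-Hochberg adjusted p = 0.0141), while its paralog Slc25a4 was at 0.00. Tomm20 and Tomm22, receptors of the outer membrane import channel, were at 0.07 and 0.00 at E14.5, and at 0.12 (SE 0.052, adjusted p = 0.744) and 0.02 at E18.5, per the authors' deposited table. Of 26 genes of pyruvate entry and the citric acid cycle, Pcx, which makes oxaloacetate from pyruvate, was lower at −0.15 (SE 0.045, Benjamini-Hochberg adjusted p = 0.0444). The pyruvate carrier subunits Mpc1 and Mpc2 were at −0.08 (SE 0.076) and −0.02 (SE 0.073) at E14.5 per the authors' deposited table. None of the 6 other donors of electrons to ubiquinone was called at either stage, with Etfa and Etfb, which collect electrons from fatty acid oxidation, at −0.01 (SE 0.065) and 0.05 (SE 0.072) at E14.5 per the authors' deposited table. These combined calls, and those of Gabpa and Fmc1, ended with Benjamini-Yekutieli adjustment and with the rescaled statistics.

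Glycolysis, the other main source of ATP, gave 5 calls among 19 genes over both stages, all higher in KI (Pkm, Pfkl, Tpi1, Gpi1 and Ldha), where 1.1% of all genes were called higher. At single stages 4 were called at E14.5 and 2 at E18.5, all higher, against 0.738% and 0.0441% of all genes. The E14.5 count went to 2 with Benjamini-Yekutieli adjustment and to 0 with the rescaled statistics, the E18.5 count to 0 and 2, and the combined count to 5 and 4. Its medians were 0.10 at E14.5 and 0.08 at E18.5, beside 0.01 and 0.03 for the respiration genes, and no test compared the lists.

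Markers of the tissue and of cells that could accompany it were read from the same tables. All 8 forebrain markers were tested at both stages, with medians of 0.05 and −0.02 and with 3 and 0 at an unadjusted p under 0.05. At E14.5, 5 were above 0 and 3 below, and at E18.5, 3 were above and 5 below. Of the 8, 1 was called at E14.5, where 0.738% of all genes were called higher. The same 1 was called over both stages, where 1.1% of all genes were called higher. Dlx1, a marker of ventral forebrain, was called higher in KI at E14.5, at 0.17 (SE 0.047, DESeq2 adjusted p = 0.0369) per the authors' deposited table, and over both stages, at 0.12 (SE 0.033, Benjamini-Hochberg adjusted p = 0.0202). Its paralog Dlx2 was at 0.15 (SE 0.049, adjusted p = 0.0835) and the cortical neuron marker Tbr1 at −0.12 (SE 0.045, adjusted p = 0.209) at E14.5 per the authors' deposited table, both named after their values were seen. Of 6 genes chosen as markers of tissue outside the forebrain, 2 were listed and 1 (Gbx2) was tested. It was higher in KI over both stages at 0.48 (SE 0.129, Benjamini-Hochberg adjusted p = 0.0169), beside the 1.1% of all genes called higher. Gbx2 is not confined to such tissue, and where its transcripts came from was not tested. All 6 tested erythroid markers were above 0 at E14.5 (median 0.52), and 5 had an unadjusted p under 0.05. Of the 6, 2 were called (Hbb-y and Hba-x), where 0.738% of all genes were called higher. At E18.5, 2 of 3 were above 0 (median 0.10), with 0 at an unadjusted p under 0.05. Erythroid genes made up 0.0164% of normalized counts at E14.5 and 0.0052% at E18.5. The part of the forebrain and erythroid markers in the values of the respiration genes was not tested. The 8 endothelial and mural markers had medians of −0.02 and 0.03, and the 6 tested microglial markers 0.08 and 0.09, with none called. Of the meningeal and fibroblast markers, 4 of 5 tested were above 0 at E14.5 (median 0.28) and 0 of 2 at E18.5 (median −0.14), and none was called, with 2 and 1 at an unadjusted p under 0.05. Muscle had 2 and 3 markers tested and choroid plexus 1 and 2, none called. In bulk tissue, fewer cells of a type and less RNA per cell cannot be told apart.

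Without an adjusted p were 8 of the 86 genes at E14.5 and 7 of the 84 listed at E18.5. They were Cox4i2, Cox7a1, Cox7a2, Ndufb4b, Ndufb4c and Ndufs6b at both stages, Sdhd and Ndufs5-ps at E14.5 and Cox6b2 at E18.5. Sdhd and Ndufs5-ps were not listed at E18.5. Each had fewer normalized counts than any gene with an adjusted p, for which the lowest mean was 25.2 and 32.7 at the 2 stages, and none of the shares above describes these genes. Mean normalized counts are not divided by gene length, so they rank no gene above another in copies.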

How the data were processed

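The data are the authors' own comparisons of KI with WT forebrain, 1 table per stage, 5 libraries against 5. The submitters' processing notes name build mm10 and, among other tools, DESeq2 1.26.0, featureCounts 2.0.0, HISAT2 2.1.0 and Trimmomatic 0.39. Per the file headers each deposited table gives a mean normalized count (a signal averaged over both genotypes), a log2 fold change, its SE on the log2 scale, the Wald statistic as a score, and p-values before and after adjustment. The tables hold 0 columns of values per library, so the depth per library is unknown and the authors' SE gives the precision. Library sizes, strandedness and the handling of shared reads are not given in the sources used here.

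Symbols, positions and promoters came from RefSeq tables of GRCm38.p6, the assembly of mm10, and 95.8% of gene IDs at E14.5 and 97.5% at E18.5 matched. The deposited adjusted p equalled the Benjamini-Hochberg adjustment over genes that had one. From the deposited log2 fold change and SE, a combined value and a stage difference were computed (two-sided normal p, Benjamini-Hochberg over 13106 genes) with Python 3.11.15 and SciPy 1.17.1, and the code was tested on simulated data. A 95% interval is the estimate plus or minus 1.96 SE. Names are given for any of the 86 genes. Full values are given for called genes, the 5 highest and 5 lowest Wald statistics per stage, the 3 largest stage differences and a fixed set of core genes. For most other lists called genes and the first 2 as written are named. A few further genes were named after their values were seen (Ndufa12, Ndufa8, Atp5k, Lyrm4, Lyrm9, ND3, Tmem70 and Tfam among them). The genes and lists were chosen with earlier results of these data known. Low counts, adjustment, null spread, threshold and centring were varied. The values of 1 respiration gene are counted in the totals but not reported here by name or drawn in the 2 figures that name each gene. The chromatin immunoprecipitation and ATAC-seq libraries were not analysed here.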

Additional observations from a re-analysis of the deposited data

How the results depend on the processing

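No paired analysis was possible because the tables hold no values per library, and leaving out single libraries could not be run for the same reason. With Benjamini-Yekutieli adjustment the respiration genes called went from 1 to 0 at E14.5 and from 1 to 0 over both stages. Rescaling the Wald statistics to their own median and spread over all genes, which had a scale of 1.22 at E14.5 and 1.24 over both stages, also gave 0 and 0. Genome-wide calls at E14.5 were then 56 and 31 in place of 162, and over both stages 89 and 60 in place of 254. At a threshold of 0.1 the E14.5 count was 1, and the combined count was 3 (Cox8a, Lyrm7 and Ndufb2), with 319 and 416 genes called genome-wide. At E18.5 and for the stage difference, 0 respiration genes were called under any of the 6 alternatives, while 4 to 19 genes and 0 genes passed genome-wide.

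The list counts under these alternatives were chosen after seeing the data. At E14.5, ATP synthase assembly and the LYR family went from 1 and 2 to 0 with either alternative, and glycolysis from 4 to 2 (Benjamini-Yekutieli) and 0 (rescaled). At a threshold of 0.1, the citric acid cycle, mitochondrial ribosome and import lists rose from 0 to 1. Glycolysis at E18.5 went from 2 to 0 with Benjamini-Yekutieli. Over both stages 6 lists (ATP synthase assembly, LYR family, citric acid cycle, biogenesis, mitochondrial ribosome and import) went from 1 to 0 with either alternative. The citric acid cycle list also went to 0 when every gene with a p-value was adjusted, and the LYR family rose to 2 at a threshold of 0.1. All 56 recomputed medians moved by less than the median SE of their genes, the most being 0.031. That SE is for single genes, and a move of 0.031 exceeds the respiration gene medians themselves (0.010 at E14.5 and 0.027 at E18.5). Of 579 recomputed adjusted p-values of the named respiration genes, 4 lost the threshold, those of Lyrm7 at E14.5 and of Ndufb2 over both stages under these 2 alternatives.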
